A study of Homo sapiens with 4 samples.

Results

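The potassium channel genes are those human genes whose symbols begin with KCN, go on with a family code of 1 to 3 letters and end in a number. There were 95 of them among the 28307 symbols of the count files, and antisense and read-through symbols were not taken. By family code they were 40 voltage-gated genes, 16 inward rectifiers, 15 two-pore channels, 8 calcium-activated channels (with the KCNT and KCNU genes of the same sequence group, which sodium or pH control) and 16 auxiliary subunits. Each of the 4 libraries came from excitatory neurons grown from i3N-WTC11, an induced pluripotent line of human origin. In both groups a CAG promoter drove dCas9-KRAB, a cutting-deficient Cas9 joined to a repressor domain, from an intron of CLYBL, which is the basis of CRISPR interference (CRISPRi). The 2 CRISPRi libraries received lentiviral guides aimed at a single transposable element of the MIR family on chromosome 11, and the 2 control libraries the guide vector left empty. Virus was given to 2-week neurons at a multiplicity of infection of 3 in all 4 libraries. Puromycin at 0.5 µg/mL followed for 4 days, and polyA RNA was collected 7 days after the virus. All neurons came from 1 cell line, and which of the 2 guides entered which CRISPRi library is unknown here.

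Potassium channels let potassium cross the membrane along its gradient and so set a neuron's resting potential, shape its action potential and control how often it fires. Voltage-gated channels open on depolarization, and inward rectifiers pass current more easily near rest. Two-pore channels carry the background leak, and calcium-activated channels link internal calcium to repolarization. Auxiliary subunits change the gating and traffic of the pore-forming ones.

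Control replicate 1 stood apart and touches every comparison. It held 944993 counts, where CRISPRi replicates 1 and 2 held 44839748 and 41560282 and control replicate 2 held 39325038, so that a single count in it equals 1.06 CPM (CPM being counts scaled to the same total in every library). The other 3 are called the deep libraries. Its 15 markers of dividing cells summed to 530.2 CPM, whereas the sums were 86.0 and 91.7 CPM under CRISPRi and 93.0 CPM in control replicate 2. Neuronal identity was seen in every library: TUBB3, the neuronal tubulin, reached 2456 and 2586 CPM under CRISPRi, against 2259 and 2590 CPM in controls, and 10 glutamatergic genes summed to 724 and 730.0 CPM, against 661 and 742 CPM. The 10 peripheral neuron genes summed to more than these, 1032 and 1018 CPM under CRISPRi, against 889 and 981 CPM in controls, with the sensory neuron factor POU4F1 at 442 and 421 CPM, against 388 and 418 CPM. Of the lists for other cell types, the 12 mesenchymal genes summed to 472 and 499 CPM under CRISPRi, against 515 and 352 CPM in controls. Which cells held this RNA, neurons included, was not tested. The log2 fold changes of these 12, CRISPRi over control, ran from -1.01 to 2.19, and from -0.92 to 2.16 without control replicate 1. The remaining lists summed to 33.5 and 29.5 CPM under CRISPRi, against 32.8 and 31.6 CPM, for 12 glial genes, to 8.47 and 8.90 CPM, against 16.9 and 8.54 CPM, for 9 GABAergic genes, and to 43.9 and 44.1 CPM, against 34.9 and 43.9 CPM, for 9 pluripotency genes. SOX10, DLX5, DLX6, TDGF1, ZFP42 and L1TD1 had 0 counts throughout, and GFAP had at most 4 and NANOG at most 1. Fewer cells of a type and less RNA per cell cannot be told apart in such bulk samples.

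The neurons carried a wide but uneven set of channel transcripts. Of the 95 genes, 77 had counts in each deep library and 12 had none in any library. Only 7 genes averaged above 100 CPM over the deep libraries, KCNA2, KCNH2, KCNAB2, KCNIP1 and KCNC1 among them. The 7 held 61.8% and 61.7% of all potassium channel counts under CRISPRi, against 63.0% and 62.0% in controls. A further 26 genes lay between 10 and 100 CPM, 18 between 1 and 10 CPM, and 32 below 1 CPM. The genes without a count were the voltage-gated KCNA7, KCNG3 and KCNG4, the inward rectifiers KCNJ1, KCNJ13 and KCNJ18, the two-pore KCNK13, KCNK16, KCNK17 and KCNK18, the sperm channel KCNU1 and the auxiliary KCNE4. Absence of counts still allows up to 3 counts, taken as an upper limit for counting error only. That is 0.0669 to 0.0763 CPM in the deep libraries and 3.17 CPM in control replicate 1. The Poisson 95% intervals used further below, which have limits on both sides, reach 3.69 for a count of 0.

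The 4 windows below were chosen, after the values were seen, to show the start of a leading gene and of a gene with no count in the same family, for Kv1 channels (KCNA6, KCNA7) and for two-pore channels (KCNK3, KCNK18). Each runs from 250 bases before to 50 bases after the start on the gene's own strand, 5′ to 3′, from RefSeq (GRCh38.p14), with CG dinucleotides in capitals. KCNA6 is at chr12:4809084-4809383 (plus strand), KCNA7 at chr19:49072650-49072949 (minus strand), KCNK3 at chr2:26692472-26692771 (plus strand) and KCNK18 at chr10:117197239-117197538 (plus strand).
KCNA6: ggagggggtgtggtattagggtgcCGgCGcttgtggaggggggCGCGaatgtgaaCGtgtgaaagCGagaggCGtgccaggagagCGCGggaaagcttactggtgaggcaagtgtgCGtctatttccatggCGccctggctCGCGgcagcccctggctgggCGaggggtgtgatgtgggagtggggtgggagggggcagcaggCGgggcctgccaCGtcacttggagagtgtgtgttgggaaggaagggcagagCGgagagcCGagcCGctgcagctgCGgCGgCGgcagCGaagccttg
KCNA7: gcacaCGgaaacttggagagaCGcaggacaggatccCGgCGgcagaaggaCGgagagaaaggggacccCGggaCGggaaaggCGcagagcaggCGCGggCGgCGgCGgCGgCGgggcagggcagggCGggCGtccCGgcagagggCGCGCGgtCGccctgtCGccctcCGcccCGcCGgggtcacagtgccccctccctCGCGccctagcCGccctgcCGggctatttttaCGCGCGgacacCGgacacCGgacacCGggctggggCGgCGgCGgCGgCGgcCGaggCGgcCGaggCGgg
KCNK3: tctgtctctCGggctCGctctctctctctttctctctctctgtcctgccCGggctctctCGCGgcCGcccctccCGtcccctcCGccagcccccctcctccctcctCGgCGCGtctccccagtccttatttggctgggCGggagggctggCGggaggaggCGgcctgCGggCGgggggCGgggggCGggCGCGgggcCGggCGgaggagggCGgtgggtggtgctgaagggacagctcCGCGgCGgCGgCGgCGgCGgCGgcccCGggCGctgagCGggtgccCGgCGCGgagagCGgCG
KCNK18: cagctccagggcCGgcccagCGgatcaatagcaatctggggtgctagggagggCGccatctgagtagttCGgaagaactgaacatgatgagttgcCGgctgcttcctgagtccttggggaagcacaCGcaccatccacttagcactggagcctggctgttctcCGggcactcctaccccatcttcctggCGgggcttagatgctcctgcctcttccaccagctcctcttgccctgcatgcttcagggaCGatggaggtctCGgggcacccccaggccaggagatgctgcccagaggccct
They held 23, 45, 39 and 10 CG dinucleotides in that order, so the gene without counts had more of them in the Kv1 pair and fewer in the two-pore pair. Windows were found for 71 of the 95 genes, and a gene with several starts was given the median of its windows. This number had a median of 23 over the 23 matched genes at 10 CPM or more, of 22 over the 12 between 1 and 10 CPM, of 16 over the 26 below 1 CPM, and of 9 over the 10 with no count, where it ran from 1 to 49. It did not follow level throughout, since the 5 matched genes above 100 CPM had a median of 16.5. Over all 35116 windows of the table the median was 14. That value counts each window singly, so it is not of the same unit as the medians by gene.

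The make-up by class was similar in the deep libraries. Voltage-gated genes held 68.4% and 67.7% of potassium channel counts under CRISPRi, against 70.6% and 68.3% in control replicates 1 and 2. For auxiliary subunits the shares were 17.0% and 17.8% under CRISPRi, against 16.4% and 17.3% in controls. For inward rectifiers they were 5.74% and 5.95% under CRISPRi, against 5.48% and 5.87% in controls. The remaining classes were the smallest. Two-pore channels held 4.69% and 4.50% under CRISPRi, against 4.20% and 4.37% in controls, and calcium-activated channels 4.15% and 4.10%, against 3.23% and 4.21%. The 95 genes together averaged 2289 ± 36.2 CPM under CRISPRi and 2182 ± 165 CPM in controls (SD, n = 2 each). In summed CPM, control replicate 1 was the lowest library in all 5 classes, although its voltage-gated share was the highest.

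**Figure D1:**
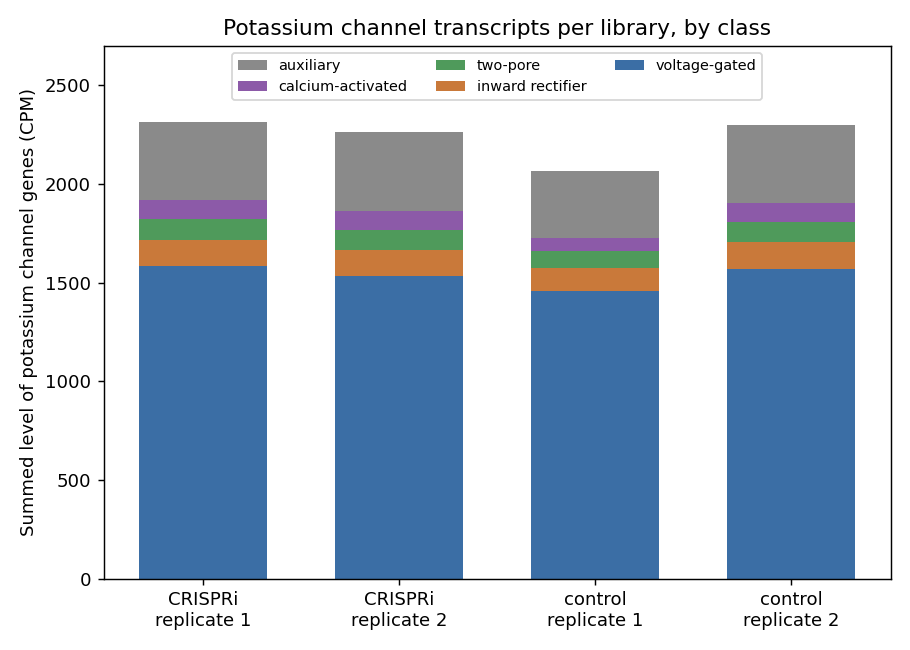
Summed level of the 95 potassium channel genes in each library (y axis, CPM), stacked by class, with CRISPRi libraries on the left and controls on the right. The columns reach 2315, 2264, 2066 and 2299 CPM from left to right, and the voltage-gated class fills the largest part of each.

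Levels of different genes were compared per kilobase of exon, as means over the deep libraries. Among voltage-gated genes, the Kv7 family carries the M-current, a slow current that restrains repetitive firing. KCNQ3, a neuronal Kv7 subunit of this current, stood at 3.44 CPM per kb, with 39.6 and 39.5 CPM under CRISPRi, against 42.3 and 40.7 CPM in controls. KCNQ5, another neuronal Kv7 gene, was at 0.137 CPM per kb. KCNQ1, the cardiac member, had 4 and 3 counts under CRISPRi, against 0 and 0 in controls, on an alternate contig where the authors' FPKM, a length-scaled level, is listed at 0. How much of the gene that row covers was not settled, so its level is uncertain.

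KCNH2 (hg38 here and below, chromosome 7, 150944956 to 150978321), the ERG1 channel best known for repolarizing the heart, stood at 32.4 CPM per kb. Its levels were 163 and 160.4 CPM under CRISPRi, against 139 and 170.0 CPM in controls. KCNA2 (chromosome 1, 110593580 to 110631440), a Kv1 channel of axons, stood at 23.0 CPM per kb, with 309 and 301 CPM under CRISPRi, against 321 and 303 CPM in controls. For both genes the groups overlapped. KCNA6 (chromosome 12, 4809176 to 4851112), another Kv1 subunit, reached 14.4 CPM per kb, with 65.1 and 59.8 CPM under CRISPRi, against 45.5 and 58.3 CPM in controls. KCNB2, a Kv2 channel, was at 10.7 CPM per kb and KCNC1, a Kv3 channel of fast-firing cells, at 10.6 CPM per kb. Family members differed widely. Within Kv1, KCNA1 was at 0.0441 CPM per kb, with 15 and 12 counts under CRISPRi, against 0 and 17 in controls. The A-type Kv4 genes KCND2, KCND3 and KCND1 stood at 2.83, 2.21 and 1.34 CPM per kb.

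Among auxiliary subunits 2 of the 4 KChIP genes, whose calcium-binding proteins join Kv4 channels, stood highest. KCNIP1 (chromosome 5, 170353487 to 170736632) was at 34.6 CPM per kb, with 102 and 106 CPM under CRISPRi, against 86.8 and 103 CPM in controls. KCNIP2 (chromosome 10, 101825974 to 101843920) was at 31.9 CPM per kb, with 86.7 and 92.6 CPM under CRISPRi, against 82.5 and 92.0 CPM in controls. The family was uneven, with KCNIP4 at 8.91 CPM per kb and KCNIP3 at 0.406. In sum the 4 KChIP genes reached 75.9 CPM per kb, and the 3 Kv4 genes 6.39 CPM per kb. KCNAB2, a beta subunit of Kv1 channels, stood at 18.4 CPM per kb, far above its relatives KCNAB1 at 1.63 and KCNAB3 at 0.201. KCNMB4, the neuronal beta subunit of the BK channel, was at 6.58 CPM per kb, while KCNMB2, KCNMB3 and KCNMB1 were at 0.225, 0.0607 and 0.0358. The 5 KCNE genes, single-span subunits known mostly from heart and epithelia, were low, summing to 1.63 and 1.18 CPM under CRISPRi, against 0 and 1.25 CPM in controls.

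KCNJ12 (Kir2.2) and KCNJ9 (a G protein-gated GIRK subunit) led the inward rectifiers at 6.23 and 6.16 CPM per kb, with overlapping ranges in the deep libraries. KCNJ12 had 34.3 and 35.4 CPM under CRISPRi, against 31.7 and 35.3 CPM in controls. Its near-identical copy KCNJ18 was at 0, so how reads were split between them is uncertain. KCNJ9 had 26.5 and 25.6 CPM under CRISPRi, against 20.1 and 24.97 CPM in controls. KCNJ4 (Kir2.3) stood at 5.37 CPM per kb, with 11.8 and 11.4 CPM under CRISPRi, against 4.23 and 10.1 CPM in controls. For KCNJ9 and KCNJ4 the CRISPRi libraries lay above both controls, and control replicate 1 was the lowest. KCNJ11, the pore of ATP-sensitive channels, was at 2.25 CPM per kb, and the GIRK genes KCNJ5, KCNJ6 and KCNJ3 at 2.06, 1.63 and 1.57. KCNJ10 (Kir4.1), an astrocyte channel, had 6 and 6 counts under CRISPRi, against 0 and 1 in controls.

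KCNK3 (TASK-1, chromosome 2, 26692722 to 26733419) led the two-pore genes at 11.8 CPM per kb, with 76.3 and 72.0 CPM under CRISPRi, against 61.4 and 71.6 CPM in controls. KCNK10 (TREK-2), KCNK12 (THIK-2) and KCNK9 (TASK-3) stood at 2.24, 1.13 and 0.520 CPM per kb, and KCNK2 (TREK-1), a close relative of KCNK10, at 0.0986. In the calcium-activated class KCNN1 (the small-conductance SK1) was at 3.11 CPM per kb, KCNMA1 (the BK pore) at 2.38, KCNN3 (SK3) at 1.80 and KCNT2 (the sodium-activated Slick) at 0.954. KCNMA1 had 52.3 and 48.3 CPM under CRISPRi, against 41.3 and 52.6 CPM in controls. The length used matters for such ranks. The authors' FPKM averaged 7.82 for KCNMA1 and 3.87 for the Kv3 gene KCNC4, which were at 2.38 and 0.953 CPM per kb.

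**Figure D2:**
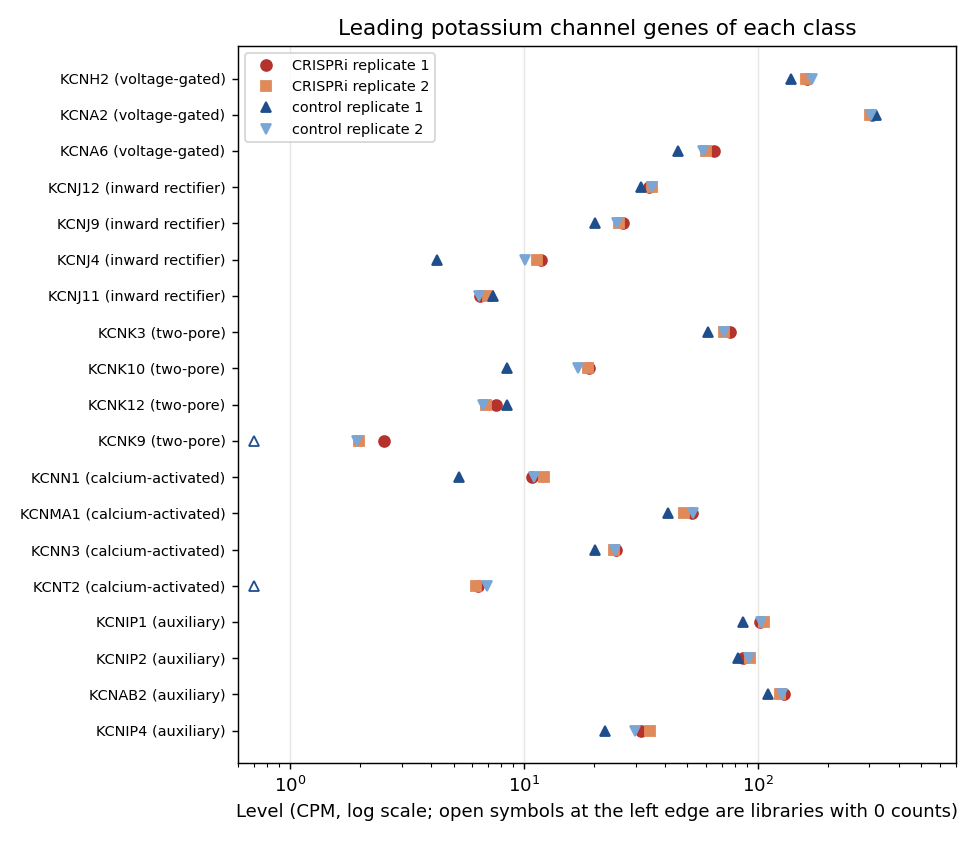
Level in CPM (x axis, log scale) of the genes with the highest level per kilobase in each class (3 voltage-gated, 4 in the others), 1 symbol per library. Control replicate 1 is the lowest library for all of these genes but KCNA2, KCNJ11 and KCNK12, where it is the highest. It lies at 4.23 CPM for KCNJ4, 8.47 CPM for KCNK10 and 5.29 CPM for KCNN1, and has 0 counts for KCNK9 and KCNT2.

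No potassium channel gene passed the test between CRISPRi and control neurons. In edgeR's quasi-likelihood test over 15708 genes, with Benjamini-Hochberg adjusted p under 0.05 as the threshold, 0 of the 71 that passed the filter on low counts were called in either direction. Among all genes 0.0255% were called, all of them lower under CRISPRi (0.0% higher). At an unadjusted p under 0.05 there was 1, KCNE2, where 0.961% of all genes passed. DESeq2 and limma-voom called 0 of the potassium channel genes as well. Their shares over all genes are not given here, so this says nothing particular to the channels. The log2 fold changes of the 71 had a median of 0.055, beside 0.0090 over all genes tested. Of the 71, 47 were positive and 24 negative, where 52.7% of all genes tested were positive. Without control replicate 1 the median of these 71 was 0.0037. Both CRISPRi libraries lay above both controls for 16 genes and below both for 9, where all tested genes gave 17.8% and 16.5%. An exact permutation test cannot pass 0.05 with groups of 2.

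For well covered genes the interval of the difference was narrow. The 95% confidence interval of the log2 fold change left out both a halving and a doubling for 39 of the 71. These were all 7 genes above 100 CPM, 24 of the 26 between 10 and 100 CPM, 8 of the 18 between 1 and 10 CPM and 0 of the 20 tested below 1 CPM. The count thus followed level, and the share over all tested genes is not given here. KCNJ4 and KCNJ5 were the exceptions above 10 CPM, with intervals that reached 1.00 and 1.28. The 33 genes at 10 CPM or more had log2 fold changes from -0.26 (KCNC4) to 0.35 (KCNJ4). Without control replicate 1 the lowest was -0.19 (KCNH1).

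By class, voltage-gated genes had a median log2 fold change of 0.046 (20 positive and 14 negative), inward rectifiers 0.050 (6 and 3) and two-pore genes 0.081 (6 and 3). Calcium-activated genes had 0.099 (5 and 1) and auxiliary subunits 0.077 (10 and 3). Without control replicate 1 the medians of the same genes were -0.0021, -0.014, 0.16, -0.026 and 0.0037 in that order. The medians of the voltage-gated, inward rectifier and calcium-activated genes thus changed sign.

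Abundant genes differed little. KCNA2 averaged 305 ± 5.71 CPM under CRISPRi, against 312 ± 12.3 CPM in controls (SD, n = 2 each), and its log2 fold change was -0.012 (-0.20 to 0.18). The log2 fold change of KCNH2 was 0.040 (-0.23 to 0.31), of KCNIP1 0.095 (-0.15 to 0.34), of KCNIP2 0.018 (-0.20 to 0.24) and of KCNAB2 0.077 (-0.37 to 0.52). None of these intervals left out 0. KCNK3 was at 0.12 (-0.12 to 0.36), KCNJ12 at 0.024 (-0.24 to 0.29), KCNJ9 at 0.13 (-0.20 to 0.46) and KCNMA1 at 0.023 (-0.28 to 0.33). The less abundant KCNN1, KCNN3, KCNJ11 and KCNK12 were at 0.20 (-0.42 to 0.83), 0.066 (-0.57 to 0.70), 0.050 (-0.53 to 0.63) and 0.054 (-0.52 to 0.63), which also take in 0.

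**Figure D3:**
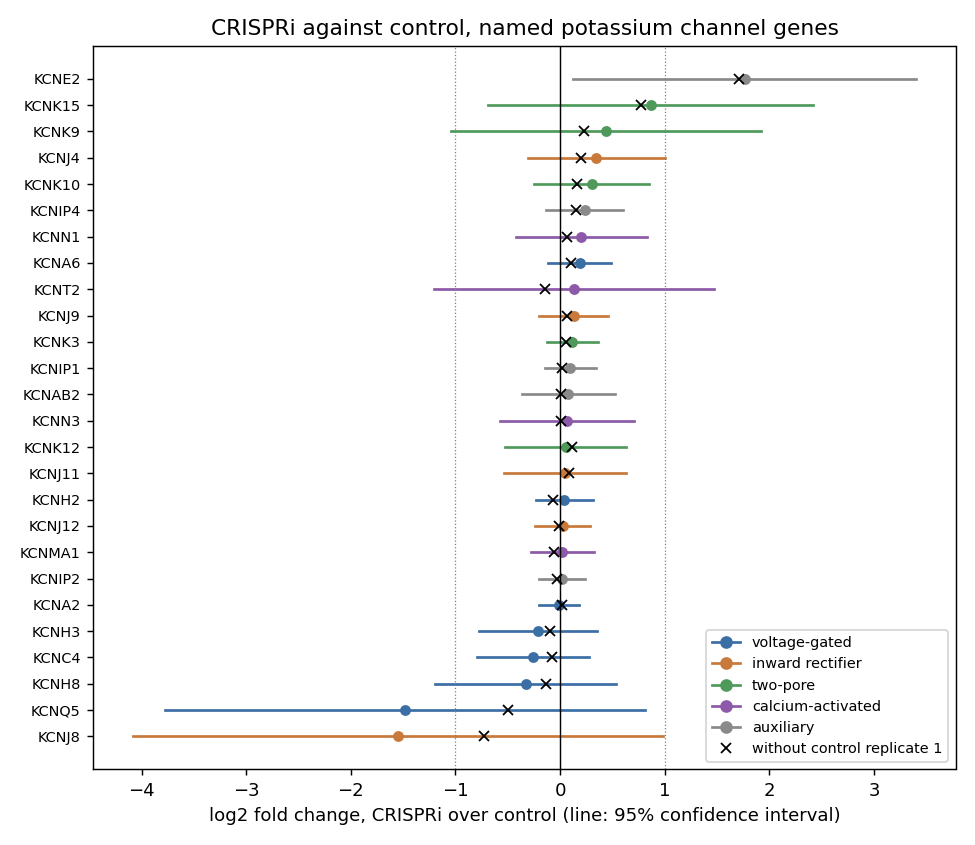
Log2 fold change of CRISPRi over control for 26 potassium channel genes (x axis), with points coloured by class, lines for 95% confidence intervals, crosses for the value without control replicate 1 and dotted lines at a halving and a doubling. Of these intervals, that of KCNE2 (0.13 to 3.40) leaves out 0, and those of KCNJ8 and KCNQ5 are the widest.

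Of the genes with positive fold changes, KCNE2 (chromosome 21, 34364006 to 34371381) had the smallest p. Its single-span product joins KCNH2 and KCNQ1 channels. It had 35 and 23 counts under CRISPRi, against 0 and 8 in controls, or 0.781 and 0.553 CPM, against 0 and 0.203 CPM. Both CRISPRi libraries lay above both controls, but the 3.17 CPM that 0 counts allow in control replicate 1 is more than either CRISPRi value. The log2 fold change was 1.77 (SE 0.66, edgeR adjusted p = 1.00), and 1.71 without control replicate 1, which leaves a single control.

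The next in that direction were KCNIP4, KCNA6, KCNK15 and KCNK10. KCNIP4, a KChIP gene (chromosome 4, 20728606 to 21948751), had 31.5 and 34.7 CPM under CRISPRi, against 22.2 and 30.0 CPM in controls, and a log2 fold change of 0.24 (-0.13 to 0.60). It overlaps PACRGL on the opposite strand, and whether counting used strand is unknown here. For KCNA6 the log2 fold change was 0.19 (-0.11 to 0.49). KCNK10 had 19.0 and 18.8 CPM under CRISPRi, against 8.47 and 17.0 CPM in controls, and 0.30 (-0.25 to 0.85). KCNK15, a two-pore gene that overlaps RIMS4 and KCNK15-AS1 on the opposite strand, had 39 and 25 counts under CRISPRi, against 0 and 17 in controls, and 0.86 (-0.69 to 2.42). In each of these genes control replicate 1 was the lowest library. Without it the log2 fold changes were 0.15 for KCNIP4, 0.10 for KCNA6, 0.16 for KCNK10 and 0.77 for KCNK15.

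Of the genes with negative fold changes, KCNQ5, KCNJ8, KCNC4, KCNH8 and KCNH3 had the smallest p, and in all 5 control replicate 1 was the highest library. KCNQ5 had 35 and 36 counts under CRISPRi, against 7 and 46 in controls, or 0.781 and 0.866 CPM, against 7.41 and 1.17 CPM. Its log2 fold change was -1.49 (-3.78 to 0.81), and -0.50 without control replicate 1. KCNJ8 (Kir6.1, the vascular ATP-sensitive pore) had 0.268 and 0.313 CPM under CRISPRi, against 4.23 and 0.483 CPM in controls, with -1.55 (-4.09 to 0.98), and -0.73 without that library. The remaining genes moved nearer to 0 in its absence. KCNC4 had 17.8 and 17.3 CPM under CRISPRi, against 30.7 and 18.5 CPM in controls, with -0.26 (-0.79 to 0.28), and -0.074 without it. KCNH8 and KCNH3, ELK channels of the KCNH family, had -0.33 and -0.21, and -0.14 and -0.094 without it. KCNH3 overlaps MCRS1 on the opposite strand. The dividing cell markers given above were high in the same library, and their part in these differences was not tested.

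Control replicate 1 was set against the counts predicted at its depth from the pooled shares of the deep libraries, with exact Poisson 95% intervals that cover counting error only. The interval lay above the prediction for 4 of the 71 tested genes (KCNQ5, KCNJ8, KCNK1 and KCNC4) and below it for 5 (KCNT2, KCNF1, KCNJ4, KCNK10 and KCNC1). That is 5.63% and 7.04%, where all tested genes gave 11.8% and 7.51%. KCNQ5 had 7 counts (2.81 to 14.4) with 0.879 predicted, and KCNC4 had 29 (19.4 to 41.6) with 16.9 predicted. KCNT2 had 0 counts (0 to 3.69) with 6.14 predicted, and KCNF1, an electrically silent modifier of Kv2 channels, 1 (0.0253 to 5.57) with 5.86 predicted. KCNK5, a two-pore gene that did not pass the filter, had 4 counts (1.09 to 10.2) with 0.135 predicted. Few counts were predicted for most weak genes at this depth, and why such genes had 0 counts was not tested. Of the 95 genes 44 had no count in that library, 32 of these had counts in a deep one, and for 31 of the 32 fewer than 3 counts were predicted.

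**Figure D4:**
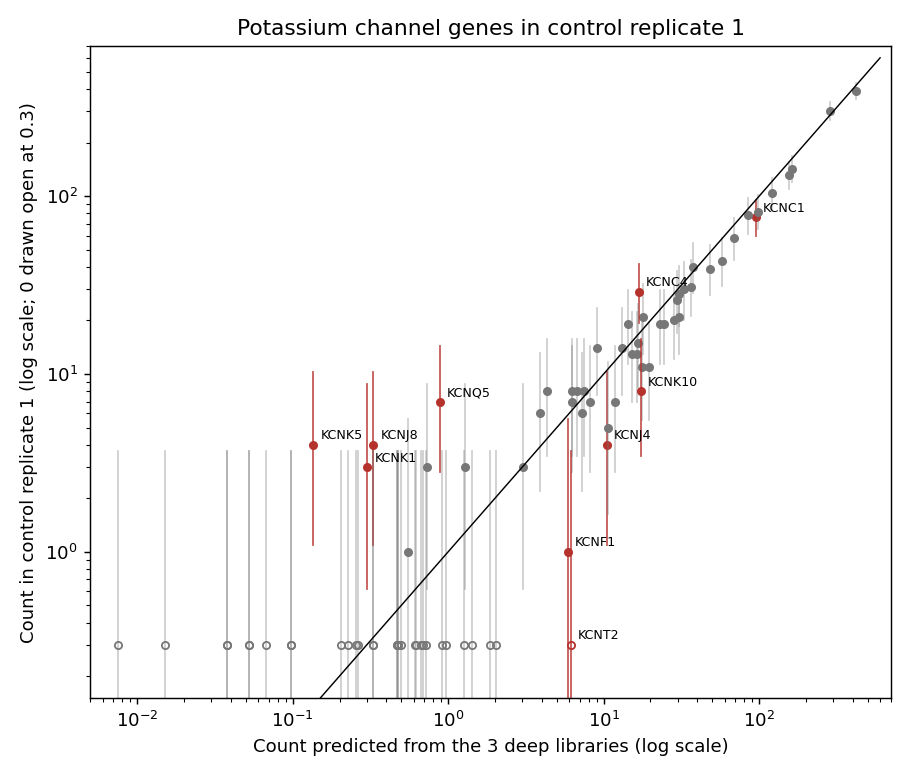
Count of each potassium channel gene in control replicate 1 (y axis, log scale) against the count predicted from the shares of the deep libraries (x axis, log scale), with exact Poisson 95% intervals and a line where both are equal. Genes whose interval leaves out the prediction are named in red, among them KCNQ5 (7 against 0.879) and KCNT2 (0 against 6.14).

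With control replicate 2 left out, so that control replicate 1 stands alone, KCNT2 was called higher and KCNQ5 lower under CRISPRi (edgeR adjusted p = 0.0184 for KCNT2 and 0.025 for KCNQ5). That setting called 8.58% of all genes, 3.61% higher and 4.97% lower. KCNT2 had 6.33 and 6.23 CPM under CRISPRi, against 0 and 6.97 CPM in controls. Control replicate 2 lay above both CRISPRi libraries. Without control replicate 1 its log2 fold change was -0.14, and 0 potassium channel genes were called.

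KCNK4, the mechanosensitive two-pore channel TRAAK, was divided unevenly between 2 symbols. It had 42 and 0 counts under CRISPRi, against 0 and 54 in controls. The read-through symbol KCNK4-TEX40, on the same strand, had 35 and 78 counts under CRISPRi, against 0 and 11 in controls. Added together they gave 1.72 and 1.88 CPM under CRISPRi, against 0 and 1.65 CPM in controls, so KCNK4 alone is uncertain. KCNK4 (chromosome 11, 64291302 to 64300031) is also the potassium channel gene closest to the targeted element, which the labels place at 47605296 to 47605575 and at 47608036 to 47608220 on chromosome 11. The gene begins 16685726 bp beyond the first of these intervals. Of the genes with rows farther away on that chromosome, KCNA4, KCNC1, KCNE3, KCNJ11 and KCNJ5 were tested and 0 were called, while KCNJ1 and KCNK7 did not pass the filter. KCNQ1, whose row lies on an alternate contig of chromosome 11, was not tested either and has no distance here.

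Genes that work with the channels were read from lists of 30 channel partners and 14 genes of potassium transport. Of 27 tested partners 0 were called, 17 were positive and 10 negative, with a median log2 fold change of 0.057, and of -0.028 without control replicate 1, so that the sign of the median turned. Of 13 tested transport genes 0 were called, 8 were positive and 5 negative, with a median of 0.031, and of 0.025 without that library. LRRC55, a gamma subunit of BK channels, had 168 and 156 CPM under CRISPRi, against 131 and 150.4 CPM in controls, and a log2 fold change of 0.18 (-0.051 to 0.42). AMIGO1, which accompanies Kv2 channels, had 94.9 and 96.1 CPM under CRISPRi, against 77.2 and 89.3 CPM in controls, and 0.17 (-0.059 to 0.39). ATP1B1, a subunit of the sodium-potassium pump, had 327 and 317 CPM under CRISPRi, against 260.3 and 304 CPM in controls, and 0.19 (-0.063 to 0.45). Both CRISPRi libraries lay above both controls for 7 of the 27 tested partners and below for 6. For the 13 transport genes these counts were 3 and 2, where all tested genes gave 17.8% and 16.5%. LRRC55, AMIGO1 and ATP1B1 were named for the smallest p in both lists, and in all 3 the CRISPRi libraries lay above both controls. In each of them control replicate 1 was the lowest, and each interval takes in 0. Without that library the log2 fold changes were 0.11 for LRRC55, 0.10 for AMIGO1 and 0.089 for ATP1B1. Of the Kv4 partners, DPP6 had 0 counts throughout, whereas DPP10 had 22.5 and 23.9 CPM under CRISPRi, against 12.7 and 22.6 CPM in controls.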

How the data were processed

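PolyA RNA libraries of 2 CRISPRi and 2 control cultures were used, which the labels call independent biological replicates. The deposited files hold whole-number counts per gene and FPKM values, both made by the authors. Per the submitters' processing notes the build was hg38, with edgeR and limma among the tools; no aligner, counter or strand setting is known here. The deposited FPKM served only as another scale for levels, because 602 to 954 rows per library had counts but an FPKM of 0.

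Counts were summed by symbol over all contigs (5.08% to 5.15% lay off the primary chromosomes) and scaled by library total to CPM. All genes were tested with edgeR 4.0.16 (R 4.3.3): expression filter, TMM scaling, robust quasi-likelihood F test, group as sole term. Standard errors and intervals were derived from the p-values, since 8 of the 71 potassium channel genes were at edgeR's Poisson bound. Exon lengths came from GENCODE release 29. Genes were named as the 4 highest per kb in each class and the 5 with the smallest p in each direction; further ones were added after their values were seen, and some genes are not reported here. Members and lists were chosen with earlier results of these data known. Alternatives were DESeq2 1.42.0, limma-voom (limma 3.58.1), other scaling and filters, primary chromosomes, a replicate block and each library left out. The test was tried on simulated data in which both controls had the same gene shares and differed in depth. The different make-up of control replicate 1 was thus not covered.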

Additional observations from a re-analysis of the deposited data

How the results depend on the processing

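Under other scaling and filters, DESeq2, limma-voom, primary chromosomes only and the replicate block, 0 potassium channel genes were called in either direction. The shares of all genes called in these settings are not given here. Leaving out libraries gave 0 to 1 higher and 0 to 1 lower, and an unadjusted p under 0.05 gave 1 higher. The median log2 fold change was 0.0068 to 0.32 across the libraries left out, highest without control replicate 2, where the median of all genes was 0.10 and the lone control was assumed to vary like the CRISPRi libraries. Of 316 values of the 29 named genes, 295 kept direction and call, 18 changed sign, and 3 gained a call (KCNT2, KCNQ5 and ATP1B1, without control replicate 2). With limma-voom the values that changed sign were -0.023 for KCNIP2, -0.044 for KCNMA1, -0.0075 for KCNJ12, -0.041 for KCNH2 and 0.0053 for KCNA2. With single libraries omitted, the ranges that crossed 0 were -0.031 to 0.15 for KCNIP2, -0.059 to 0.32 for KCNMA1, -0.14 to 10.52 for KCNT2, -0.014 to 0.16 for KCNJ12, -0.10 to 0.085 for KCNJ11, -0.19 to 0.12 for KCNK12, -0.068 to 0.25 for KCNH2 and -0.042 to 0.014 for KCNA2. The 10.52 is a fitted value on 0 counts and no bound. With the replicate block KCNK12 changed sign to -0.020 and the median was 0.080. The cause of these changes was not tested. Nothing in the labels says that the replicate numbers pair the samples. The deviations of same-numbered libraries had a correlation of -0.027. This cannot settle pairing, since 1 of the 2 deviations rests on the shallow control replicate 1. Ordered by the deposited FPKM, 17 of the 20 class leaders remained.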
